A study of Mus musculus with 4 samples.

Results

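The genes described here are 10 markers of islet macrophages and other leukocytes, *Csf1r*, *Itgam*, *Ptprc*, *Cd68*, *Lyz2*, *Tyrobp*, *Fcer1g*, *Cd74*, *H2-Aa* and *H2-Ab1*. They were taken by name from a table of 24157 gene symbols and not by a cut on their response. Earlier results of these data were known when they were chosen. Where a symbol had several entries, the entry with the highest mean level was used. The libraries came from whole pancreatic islets of wild-type male C57bl6 mice aged 3 months, isolated with collagenase and pooled before they were divided. All islets were kept overnight at 11 mM glucose and then for 2 h at 2.8 mM. Afterwards 2 aliquots stayed at 2.8 mM (low glucose) and 2 were moved to 16.8 mM (high glucose). By the study's design both incubations lasted 12 h. By the labels of the single samples the one at 16.8 mM lasted 12 h and the one at 2.8 mM only 2 h, in which case duration and glucose cannot be told apart. No islet cell type was sorted, and fewer cells of a type and less RNA per cell cannot be told apart. Since every library drew on a single pool of islets, p-values measure the spread between aliquots and not between mice.

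Macrophages are the main resident immune cells of the islet, where they take up material released by beta cells. The CSF1 receptor, encoded by *Csf1r*, transmits the growth signal that keeps them alive, and its ligands are CSF1 and interleukin 34. On their surface, MHC class II molecules, made of an alpha and a beta chain and assembled with the invariant chain, display peptides to CD4 T cells. Tyrobp (DAP12) and Fcer1g are small adaptors that carry the signal of activating receptors into the cell.

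The deposited values are RPKM, reads scaled by transcript length and by the mapped reads of the library. The length used was the whole genomic span of the transcript, introns included, so a gene with long introns such as *Ptprc* receives a lower RPKM than a compact gene such as *Cd68* at equal messenger RNA. Depth recovered from the steps between low values was 50790000 to 60700000 reads a library. All 10 genes were detected in all 4 libraries. Their RPKM summed to 19.0 and 14.2 at 2.8 mM and to 20.4 and 15.0 at 16.8 mM, for replicates 1 and 2 in that order, from 3150 to 5469 reads a library. In both groups the first replicate held more of these transcripts than the second, and the groups overlapped.

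**Figure D1:**
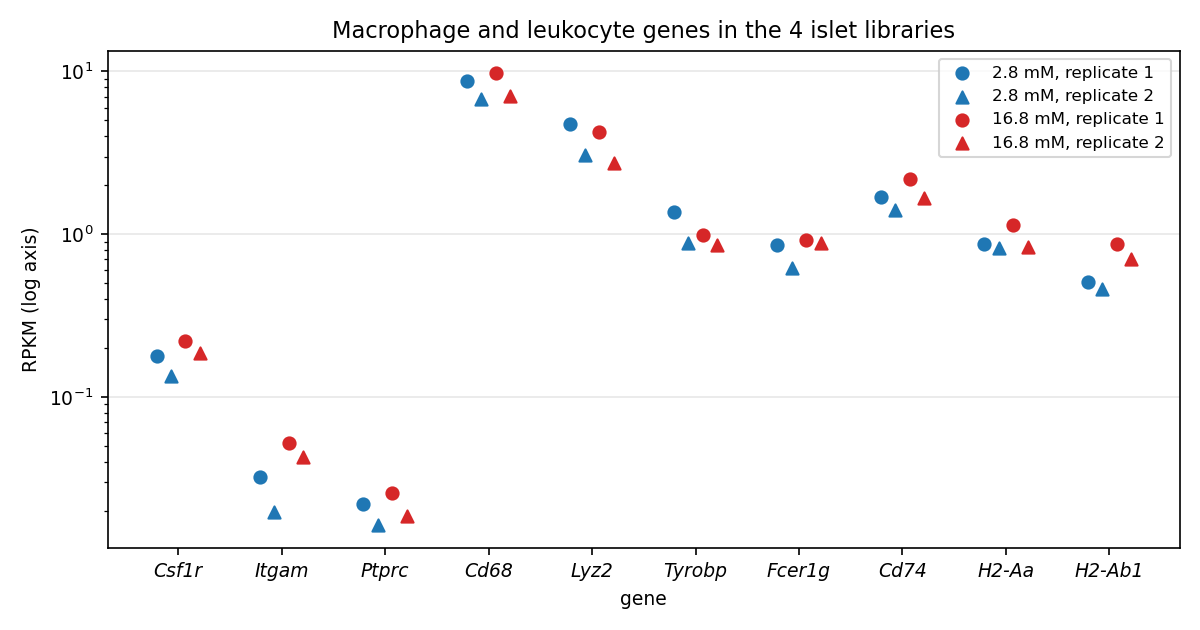
RPKM (log axis) of the 10 genes in each of the 4 libraries, blue for 2.8 mM and red for 16.8 mM glucose, circles for replicate 1 and triangles for replicate 2. In all 10 genes the circle lies above the triangle of the same colour, and in 4 genes (*Csf1r*, *Itgam*, *Fcer1g*, *H2-Ab1*) both red points lie above both blue points.

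Changes were tested in 2 ways. The first fit was limma on log2(RPKM + 0.5) over 7867 transcripts whose mean reached 1 RPKM, with Benjamini-Hochberg adjustment. It called 33.4% of them at an adjusted p under 0.05 (10.7% higher and 22.8% lower at 16.8 mM). Of the 10 genes only *Cd68*, *Lyz2*, *Tyrobp* and *Cd74* reached that minimum, and 0 of these 4 were called, and 0 had an unadjusted p under 0.05 (45.8% of the 7867 did). Without the minimum, where limma called 9.13% of 28047 transcripts, 0 of 10 were called and 2, *Itgam* and *H2-Ab1*, had an unadjusted p under 0.05 (32.3% of transcripts did). The second fit, limma voom on reads reconstructed from RPKM, span and depth, covered all 10 genes among 14694 transcripts and called 43.5% of transcripts, 13.7% as higher and 29.8% as lower. By this fit *Itgam* and *H2-Ab1* rose, and the other 8 genes did not pass the threshold. The share of the genes called higher, 2 of 10, is near that background. The median log2 fold change of the 10 genes was 0.26, with a range of -0.26 to 0.90 and 8 of 10 above 0, beside a median of -0.12 over all transcripts tested.

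**Figure D2:**
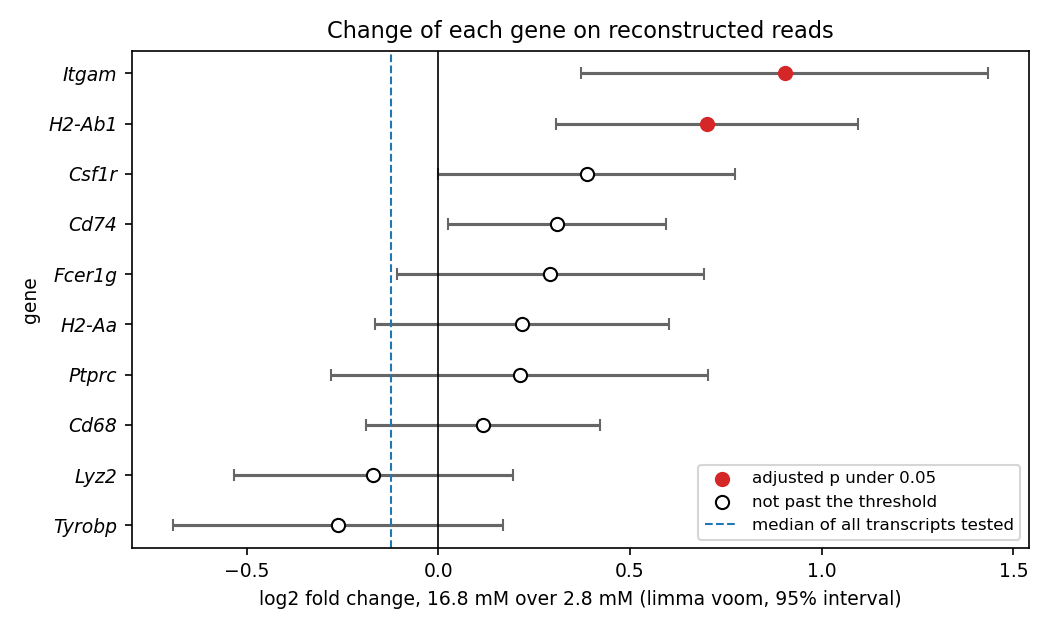
log2 fold change of each gene, 16.8 mM over 2.8 mM, from limma voom on reconstructed reads, with 95% intervals (n = 2 libraries per group). Filled points, at 0.90 for *Itgam* and 0.70 for *H2-Ab1*, have an adjusted p under 0.05, and the dashed line marks the median of all transcripts tested, -0.12.

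*Itgam* encodes the integrin alpha M chain (CD11b), which pairs with Itgb2 to form the complement receptor of myeloid cells. It lies on the plus strand at chr7:135206154-135262004 (NCBI build 37). Its RPKM was 0.0322 and 0.0196 at 2.8 mM and 0.0525 and 0.0426 at 16.8 mM. Both high-glucose libraries were above both low-glucose libraries, and the ratio of the group means was 1.84. These levels stand for 105 and 57 reads at 2.8 mM and for 178 and 121 reads at 16.8 mM, with exact 95% Poisson limits of 85.9 to 127 and 43.2 to 73.9 for the first pair. For the second pair the limits were 153 to 206 and 100.4 to 145. Such limits cover counting error only. The log2 fold change was 0.90 (SE 0.26, limma voom, adjusted p = 0.0067). Without the second 2.8 mM library it was 0.56 (limma voom, adjusted p = 0.275), and without the first 16.8 mM library 0.75 (limma voom, adjusted p = 0.0684).

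The promoter of *Itgam* is shown because *Itgam* had the largest rise of the 10 genes on reconstructed reads. It is the RefSeq sequence from 250 bases before to 50 bases after the start site, plus strand of chr7:128062390-128062689 in GRCm38.p6, a later build than that of the deposited table. Capitals mark GAGGAA, the core of sites for the myeloid factor PU.1, on either strand.
Itgam promoter: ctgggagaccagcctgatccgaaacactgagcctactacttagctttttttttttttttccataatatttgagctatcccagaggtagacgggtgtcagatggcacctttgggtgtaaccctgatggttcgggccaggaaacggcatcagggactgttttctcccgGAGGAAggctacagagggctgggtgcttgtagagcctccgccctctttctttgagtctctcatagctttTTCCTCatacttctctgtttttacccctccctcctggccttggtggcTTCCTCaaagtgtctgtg
The 3 matches begin at positions -84, -15 and 32, counted from the start site as 0. GAGGAA occurred in 28.3% of 32851 RefSeq promoters and in 3 of the 6 genes of the set with a promoter in that table (*Itgam*, *Ptprc* and *Cd68*). A match describes these letters only, and binding was not measured.

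*Csf1r* lies on the plus strand at chr18:61265226-61290788. Its RPKM was 0.179 and 0.134 at 2.8 mM and 0.221 and 0.186 at 16.8 mM. The groups did not overlap, with means of 0.156 ± 0.032 and 0.203 ± 0.025 (SD, n = 2 each). Non-overlap in this direction was found in 23.2% of the 14694 transcripts and in 4 of the 10 genes, and non-overlap in the other direction in 47.2% and in 0 of 10. The log2 fold change of *Csf1r* was 0.39 (SE 0.19), and its 95% interval ran from 0.00064 to 0.77, but it did not pass the threshold (limma voom, adjusted p = 0.0986). With a library left out it ranged from 0.19 without the second 2.8 mM library to 0.60 without the first, and it was called in none of the 4 fits.

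*Ptprc* encodes CD45, the phosphatase on the surface of all leukocytes, and spans 112445 bases of the minus strand at chr1:139959438-140071882. It had 0.0221 and 0.0163 RPKM at 2.8 mM and 0.0258 and 0.0186 at 16.8 mM, the lowest RPKM of the set and on the longest span. The groups overlapped, and the log2 fold change was 0.21 with a 95% interval of -0.28 to 0.70 (limma voom, adjusted p = 0.493).

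*Cd68* and *Lyz2* are products of phagocytes, the former a glycoprotein of the lysosomal membrane and the latter the secreted lysozyme of macrophages. *Cd68* (chr11:69477715-69479655, minus strand) had the highest RPKM of the 10 genes, 8.71 and 6.76 at 2.8 mM and 9.74 and 7.05 at 16.8 mM. The second high-glucose library lay between both low-glucose libraries. Group means were 7.73 ± 1.38 and 8.39 ± 1.90 (SD, n = 2 each), and the log2 change was 0.10 (SE 0.18, limma, adjusted p = 0.679).

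*Lyz2* (chr10:116714390-116719377, minus strand) had 4.79 and 3.08 RPKM at 2.8 mM and 4.24 and 2.73 at 16.8 mM. The replicates of a group differed 1.55-fold in both groups, more than the group means differed (3.93 ± 1.21 and 3.49 ± 1.06, SD, n = 2 each). The log2 change was -0.15 (SE 0.23, limma, adjusted p = 0.629). Reads may be shared with its near-identical neighbour *Lyz1*. Without the second 2.8 mM library *Lyz2* and *Tyrobp* passed as lower (limma, adjusted p = 0.0286 and 0.0105), and their log2 changes turned to 0.13 and 0.03 without the first, both not called.

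The 2 adaptors differed in direction without passing the test. *Tyrobp* (chr7:31198807-31202596, plus strand) had 1.36 and 0.888 RPKM at 2.8 mM and 0.991 and 0.857 at 16.8 mM. Its groups overlapped, and the log2 change was -0.18 (SE 0.14, limma, adjusted p = 0.355). *Fcer1g* (chr1:173159703-173164496, minus strand), the common gamma chain of Fc receptors, had 0.863 and 0.624 RPKM at 2.8 mM and 0.924 and 0.886 at 16.8 mM. Its groups did not overlap, and the log2 fold change was 0.29 with a 95% interval of -0.11 to 0.69 (limma voom, adjusted p = 0.232). It was 0.07 without the second 2.8 mM library and 0.53 without the first, neither called. The ratio of *Fcer1g* to *Tyrobp* RPKM was 0.633 and 0.703 at 2.8 mM and 0.933 and 1.03 at 16.8 mM, a ratio chosen after its values were seen and therefore not tested.

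Of the MHC class II genes, *H2-Ab1*, the beta chain of I-A, rose and the other 2 did not pass the test. *H2-Ab1* (chr17:34400154-34406363, plus strand) had 0.508 and 0.463 RPKM at 2.8 mM and 0.870 and 0.709 at 16.8 mM, with no overlap of the groups. The 2.8 mM libraries held 185 and 149 of its reads, and the 16.8 mM libraries 328 and 224. Its log2 fold change was 0.70 (SE 0.19, limma voom, adjusted p = 0.0049). The call was lost without the first 2.8 mM library (0.77, limma voom, adjusted p = 0.0740), without the second (0.63, adjusted p = 0.128) and without the first 16.8 mM library (0.55, adjusted p = 0.0704), and held without the second (0.84, adjusted p = 0.0054).

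*H2-Aa*, the alpha chain that pairs with the product of *H2-Ab1*, lies beside it at chr17:34419689-34424772 on the minus strand. A longer annotated transcript of *H2-Aa* reaches the end of *H2-Ab1*. *H2-Aa* had 0.872 and 0.820 RPKM at 2.8 mM and 1.14 and 0.835 at 16.8 mM. The second high-glucose library fell between the low-glucose libraries, and the log2 fold change was 0.22 with a 95% interval of -0.16 to 0.60 (limma voom, adjusted p = 0.354). The RPKM of *H2-Ab1* relative to *H2-Aa* was 0.583 and 0.565 at 2.8 mM and 0.762 and 0.849 at 16.8 mM, again a ratio chosen after its values were seen and not tested.

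*H2-Aa* is the MHC class II gene of the set with a promoter in the RefSeq table, and that promoter is shown for the Y box, an inverted CCAAT motif typical of this gene class. It covers the same window, on the minus strand of chr17:34287774-34288073 in GRCm38.p6, with ATTGG in capitals.
H2-Aa promoter: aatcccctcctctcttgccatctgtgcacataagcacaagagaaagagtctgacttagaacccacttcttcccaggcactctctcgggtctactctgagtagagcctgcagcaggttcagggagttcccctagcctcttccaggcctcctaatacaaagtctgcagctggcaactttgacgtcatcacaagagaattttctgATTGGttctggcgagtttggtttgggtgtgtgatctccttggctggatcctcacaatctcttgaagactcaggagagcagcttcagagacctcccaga
ATTGG was searched on both strands and was found once, beginning at position -48. It occurred in 37.4% of the 32851 promoters and in 2 of the 6 genes, *H2-Aa* and *Cd68*.

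*Cd74* encodes the invariant chain, the chaperone of class II molecules, and lies on the plus strand at chr18:60963502-60972300. A microRNA gene is annotated within its span. Its RPKM was 1.69 and 1.41 at 2.8 mM and 2.18 and 1.67 at 16.8 mM, so the second high-glucose library fell just below the first low-glucose library. The log2 change was 0.24 (SE 0.13, limma, adjusted p = 0.177). Without the second 16.8 mM library *Cd74* was called higher (0.39, limma, adjusted p = 0.0287). Without the first it was at 0.086 (limma, adjusted p = 0.610), and without the second 2.8 mM library at 0.14 (limma, adjusted p = 0.508).

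Replicates 1 and 2 differed in the same direction in all 10 genes in both groups. Replicate 1 was above replicate 2 by 1.06- to 1.64-fold at 2.8 mM (median 1.34) and by 1.04- to 1.55-fold at 16.8 mM (median 1.27). Among the 14694 transcripts tested on reads, 64.4% had replicate 1 above replicate 2 in both groups, and the median ratios were 1.07 and 1.08. When each gene was set against the mean log2 level of the 10 genes in its library, the median difference between replicates fell from 0.43 to 0.18 on the log2 scale at 2.8 mM and from 0.34 to 0.11 at 16.8 mM. All 10 replicate differences had the same sign, so taking off their own mean tends to shrink them. On this relative scale the difference between groups was 0.64 for *Itgam*, 0.42 for *H2-Ab1* and 0.12 for *Csf1r*. It was -0.44 for *Lyz2* and -0.53 for *Tyrobp*, and it lay between -0.16 and 0.04 for the other 5. The 10 relative levels add up to 0 in each library, so some had to fall when others rose.

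**Figure D3:**
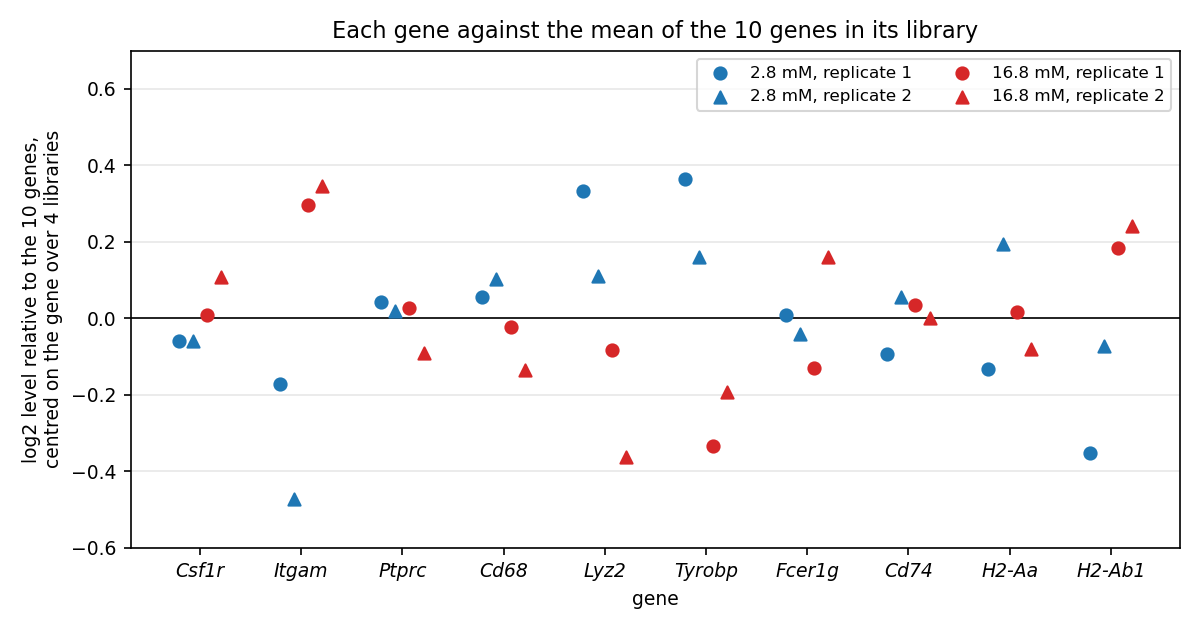
log2 RPKM of each gene minus the mean of the 10 genes in the same library, centred on the gene over the 4 libraries, with colours for glucose and shapes for replicates. *Itgam*, *H2-Ab1*, *Csf1r* and *Cd74* lie above 0 in both 16.8 mM libraries. *Lyz2*, *Tyrobp*, *Cd68* and *Ptprc* lie above 0 in both 2.8 mM libraries.

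Other genes of macrophages and of antigen presentation were read from lists. Their counts on reads stand against the 13.7% of all transcripts called higher and the 29.8% called lower by the same fit. No islet cell type was sorted, so the cells that held the transcripts of these lists cannot be told apart. Of 16 further macrophage identity genes, 13 were tested on reads, 2 rose and 0 fell, with a median log2 fold change of 0.05. *Cd14*, the co-receptor for lipopolysaccharide, had 0.927 and 0.910 RPKM at 2.8 mM and 1.94 and 1.87 at 16.8 mM, and it rose in both fits (log2 change 0.76, limma, adjusted p = 0.00083). The complement gene *C1qa* rose on reads (0.38, limma voom, adjusted p = 0.0201) and not in the RPKM fit (0.35, limma, adjusted p = 0.082). On reads the *C1qa* call was lost without the first 2.8 mM library (0.56, limma voom, adjusted p = 0.0514), without the second (0.21, adjusted p = 0.499) and without the first 16.8 mM library (0.32, adjusted p = 0.109). *Mpeg1*, a pore-forming protein of phagocytes, was at -0.15 (limma, adjusted p = 0.548). *Csf2ra* had the highest mean RPKM of this list and was not tested on reads. It had 6.98 and 6.56 RPKM at 2.8 mM and 5.76 and 4.73 at 16.8 mM (log2 change -0.34, limma, adjusted p = 0.068). In this list *Cd14* and *C1qa* were apart and higher, and *Csf2ra*, *Cx3cr1* and *Aif1* apart and lower. Among the 14694 transcripts the shares were 23.2% and 47.2%.

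Of the CSF1 receptor ligands, *Il34* fell, from 178 and 122 reads at 2.8 mM to 87 and 61 at 16.8 mM (log2 fold change -1.02, limma voom, adjusted p = 0.0019). Without the first 2.8 mM library it was -0.83 and not called (limma voom, adjusted p = 0.112). *Csf1* was at 0.04 (limma voom, adjusted p = 0.835). Of 16 class II presentation and dendritic cell genes 6 were tested on reads, of which 1 rose, the T-cell costimulator *Cd80* (0.95, limma voom, adjusted p = 8.6e-06). *H2-Eb1*, the beta chain of I-E, was at 0.23 (limma voom, adjusted p = 0.397). The median of these 6 was -0.10. The summed RPKM of all 16 was 1.74 and 1.44 at 2.8 mM and 2.36 and 2.16 at 16.8 mM, so the groups did not overlap. The largest rises in mean RPKM within this sum were those of *H2-DMa* (0.408 to 0.740) and *Cd80* (0.258 to 0.505). *H2-DMa*, a chain of the peptide exchange factor of class II molecules, was not among the 6. It had 0.416 and 0.3998 RPKM at 2.8 mM and 0.802 and 0.679 at 16.8 mM, with a log2 change of 0.45 in the fit without a minimum (limma, adjusted p = 0.058). *H2-DMb1* and *H2-DMb2*, which encode its partner chains and are named after their values were seen, were also apart and higher at 16.8 mM. They were under 0.1 RPKM in every library and did not pass that fit (limma, adjusted p = 0.167 and 0.088). *Cd80*, *Cd86* and *Flt3* of this list were apart and higher as well, and *Ciita*, *Cd40* and *Itgax* were apart and lower. Among the 14694 transcripts 23.2% were apart and higher, and 47.2% apart and lower.

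Of the 13 Fc receptor, ITAM and integrin signalling genes tested on reads, 0 rose and 1 fell, the phospholipase gene *Plcg2* (-0.83, limma voom, adjusted p = 8.9e-05). Of 11 pan-leukocyte genes tested, 1 rose, the lysosomal membrane protein gene *Laptm5* (0.58, limma voom, adjusted p = 0.0035, and 0.34 with an adjusted p of 0.283 without the second 2.8 mM library), and the actin regulator *Coro1a* was at 0.45 (limma voom, adjusted p = 0.0885). Among 10 lysosome genes tested, 2 rose and 3 fell, including progranulin, *Grn*, in both fits (log2 change -0.79, limma, adjusted p = 0.0032). Among 11 cytokine genes tested 2 rose and 2 fell. *Cxcl16* fell (-0.56, limma, adjusted p = 0.0041), and *Il1b*, named after its values were seen, rose from 52 and 53 reads to 167 and 103 (1.32, limma voom, adjusted p = 4.0e-04).

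Markers of other cells were read in the same libraries. *Cd3e*, a defining gene of T cells, and *S100a8*, of neutrophils, were listed at 0 in all 4 libraries and are named for that. Of 12 T and NK cell genes, 10 were under 0.1 RPKM on average. So were *Itgam*, *Ptprc* and 7 of 16 macrophage identity genes. Of the 2 T and NK cell genes tested on reads, 0 rose and 1 fell. The 7 B cell genes summed to 0.496 and 0.442 RPKM at 2.8 mM and to 0.495 and 0.306 at 16.8 mM, with the groups overlapping. Of them *Cd22* alone was tested on reads, and it rose (1.16, limma voom, adjusted p = 0.0071). That call was lost without the first or the second 2.8 mM library (limma voom, adjusted p = 0.110 and 0.115). Stromal genes summed to 4.24 and 2.40 RPKM at 2.8 mM and to 3.21 and 3.28 at 16.8 mM, with the groups overlapping. Endothelial genes summed to 3.96 and 2.80 RPKM at 2.8 mM and to 4.41 and 3.16 at 16.8 mM. All 8 of them were higher in replicate 1 than in replicate 2 in both groups, as the 10 genes were, and 3 rose and 1 fell with glucose on reads. Acinar and ductal genes ran the other way, at 82.2 and 197 RPKM and then 166 and 343, with 8 of 9 lower in replicate 1 in both groups. The groups of this sum overlapped, and 7 of the 9 rose and 1 fell with glucose on reads. Endocrine genes summed to 26897 and 23640 RPKM at 2.8 mM and to 48050 and 44321 at 16.8 mM. Of 7 endocrine genes tested on reads 4 rose and 0 fell, and 7 of 10 were higher in replicate 1 in both groups. By the same fit 13.7% of all transcripts were called higher and 29.8% lower. The part of these differences in the values of the 10 genes was not tested.

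**Figure D4:**
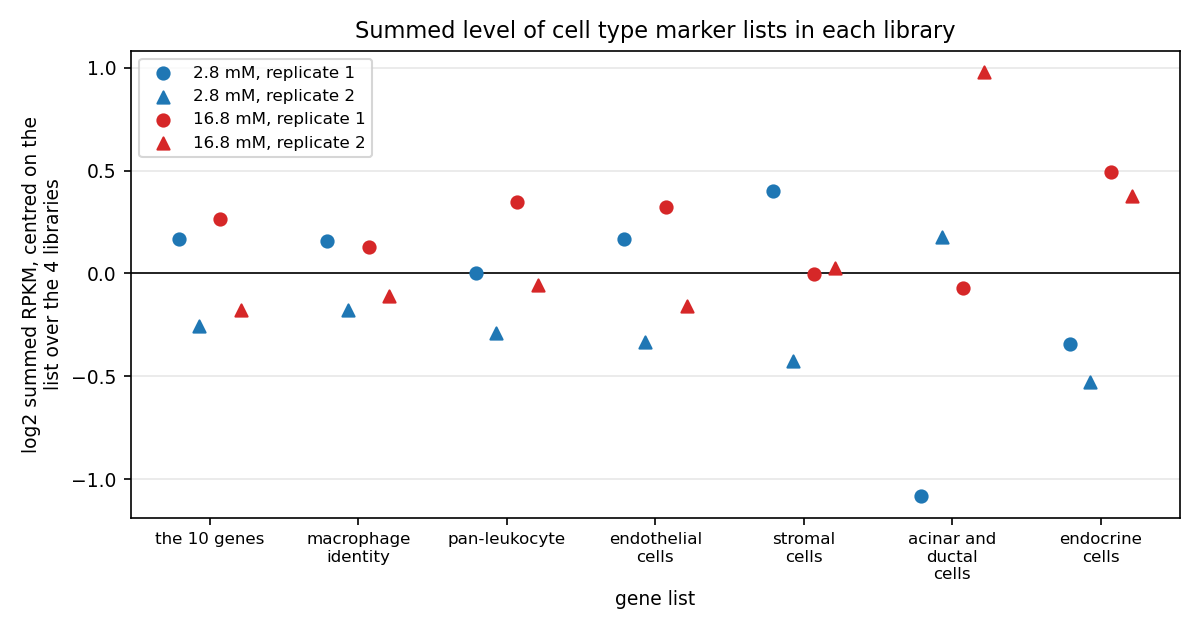
log2 of the summed RPKM of each gene list in each library, centred on the list over the 4 libraries, with colours for glucose and shapes for replicates. The 10 genes and the macrophage identity, pan-leukocyte, endothelial and endocrine lists lie higher in replicate 1 than in replicate 2 of the same group. The acinar and ductal list lies lower.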

How the data were processed

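RNA of whole islets was measured in 4 libraries, 2 at each glucose concentration, grouped by the sample labels. The deposited values are RPKM per RefSeq transcript, made by the authors from their reads. The processing notes name STAR, bedtools, DESeq and mm9, without versions. Values rounded to whole reads (within 0.1) in 98.8% to 99.2% of low entries when the length was the genomic span, which gave the depth. The authors' own comparison columns were not used.

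Of 33923 entries, 28047 remained after identical entries of a gene were dropped. limma 3.58.1 (R 4.3.3, variance trend, empirical Bayes) was run on log2(RPKM + 0.5) for transcripts whose mean reached 1 RPKM. As an alternative, limma voom was run on reconstructed reads (mean of at least 20) for transcripts whose span in the annotation matched within 10%. A fold change on the log2(RPKM + 0.5) scale understates the change of low genes. p-values were two-sided, adjusted over all transcripts tested, with a threshold of 0.05. On simulated data for this comparison, limma on 5755 transcripts recovered 100.0% of 200 changed ones with 8.26% false calls, and voom on 14694 recovered 99.5% with 4.78%. With nothing changed, limma made 6 calls and voom 0. The planted log2 changes were 1 or 2 in size, with no shift between replicates, and a call in either direction counted as recovered. Counts were drawn with a fixed dispersion that was not estimated from these libraries. A far smaller share of transcripts was changed than the 33.4% and 43.5% called in the deposited data. Whether these rates carry over to the deposited data was not tested. Recovery of smaller changes, such as the -0.26 to 0.90 of the 10 genes on reads, was not tested.

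All 10 genes are named, and from each list the 4 genes of highest mean RPKM could be named and up to 3 more that passed the threshold in the RPKM fit. *Plcg2*, *Il1b*, *H2-DMb1*, *H2-DMb2*, *Cd86*, *Flt3*, *Ciita*, *Itgax*, *Cx3cr1*, *Aif1*, *Cd3e* and *S100a8* fell outside that rule and were named after their values were seen. The genes and lists were chosen with earlier results of these data known. Alternatives were another pseudocount, minimum or scaling, a block for the replicate number, and leaving out each library.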

Additional observations from a re-analysis of the deposited data

How the results depend on the processing

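Of the 10 genes, 0 were called by the RPKM fit, 0 to 2 when a library was left out, and 2 on reconstructed reads (0 to 3 when a library was left out, a setting chosen after seeing the data). The lists had 10 calls of 37 genes tested, 6 of 156 without a minimum, 18 of 33 with at least 1 RPKM in every library, 16 of 37 with median centring, 33 of 102 on reads, and 8 to 17 when a library was left out. All transcripts had 2628 calls of 7867, 6392 of 14694 on reads, 1825 to 2579 when a library was left out, and 2821 to 5456 on reads (3484 without the second 2.8 mM library). Without the minimum, calls for the 10 genes stayed at 0.

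Replicate numbers are shared between groups, but nothing says that they mark a batch. The correlation of the replicate differences was 0.31 over 7867 transcripts. With a replicate block, calls were 1 for the 10 genes (*Cd74*), 23 of 37 for the lists and 4067 for all transcripts. On reads with the block they were 4 (*Itgam*, *H2-Ab1*, *Cd74*, *Csf1r*), 43 and 8564. The block without a minimum, added after seeing the data, gave 0 for the lists and for all transcripts.

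Directions turned for uncalled values only. *C1qc* was 0.066 with quantile normalization and 0.072 with median centring, and *Ptpn6* was 0.013 with both. Relative to the 10 genes *Ptprc* was -0.063, *Cd68* -0.16 and *H2-Aa* -0.063. When a library was left out, the RPKM fit gave -0.11 to 0.32 for *Cd68*, -0.43 to 0.13 for *Lyz2*, -0.39 to 0.035 for *Tyrobp*, -0.39 to 0.10 for *Mpeg1* and -0.19 to 0.17 for *C1qc*. Reads gave -0.13 to 0.34 (-0.064 for *Cd68* without the second 2.8 mM library), -0.50 to 0.15, -0.56 to 0.058, -0.42 to 0.11 and -0.24 to 0.23 for these, and -0.038 to 0.44 for *Ptprc*, -0.018 to 0.43 for *H2-Aa* and -0.13 to 0.23 for *Csf1*. The cause was not tested. The 2 libraries a group and, for *Itgam*, 57 to 178 reads a library limit the precision.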
